A study of Homo sapiens with 9 samples.

Results

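PINK1 is the kinase that marks damaged mitochondria for removal by autophagy, a process called mitophagy. In healthy mitochondria PINK1 is imported, cut by the inner membrane protease PARL and degraded. In depolarised ones it stays on the outer membrane, phosphorylates ubiquitin and so promotes ubiquitin chains on the organelle, after which ubiquitin-binding receptors tether the organelle to the growing autophagosome. A separate set of receptors, built into the outer membrane, binds the autophagosome without ubiquitin, and part of it is induced by low oxygen. The 10 genes described here were taken as a list by symbol from the 14943 genes counted, and all 10 were found and tested: PINK1, its protease PARL, the regulators USP30 and FBXO7, the ubiquitin-binding receptors OPTN, SQSTM1 and TAX1BP1, and the outer membrane receptors BNIP3, BNIP3L and FUNDC1.

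The cells were SH-Sy5y, a human neuroblastoma line, transfected for 48 h before their polyadenylated RNA was sequenced. The Ctrl. group received 40 pmol of a negative control oligonucleotide, the 10 nM group 20 pmol of it with 20 pmol of a miR-1229-3p mimic, and the 20 nM group 40 pmol of mimic with 0 pmol of it. Mimic and control oligonucleotide therefore change in opposite directions, and at 20 nM the gain of one and the loss of the other cannot be told apart. Each of the 3 groups had 3 libraries of 17423969 to 28192775 estimated counts, and the labels do not say whether replicates were separate cultures, so p-values measure only the spread between these libraries. RNA came from a pair of wells pooled where possible, and all libraries come from a single cell line.

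The 9 noradrenergic neuroblastoma markers were all present in the count table, which holds only genes that passed the authors' filter on low counts, at a summed 5032 to 6371 CPM (counts per 1000000 counts of a library, scaled between libraries by TMM), although TH, the first enzyme of catecholamine synthesis, was at 0.122 to 0.914 CPM. Of 8 mesenchymal or Schwann markers 5 were present, at 106 to 144 CPM in all, of 4 epithelial and blood markers 1 (EPCAM, at up to 1.2 CPM) and of 3 astrocyte markers 0. At 20 nM 3 of the 9 noradrenergic markers were lower by edgeR and 6 had an adjusted p of 0.05 or more, where 13.9% of all genes changed. The log2 fold change was above 0 for 4 of the 9. Among the lower ones, TH had a log2 fold change of -2.02 and ISL1 of -0.27. Of the 5 mesenchymal or Schwann markers present 1 was higher and 4 had an adjusted p of 0.05 or more. The higher one was CD44, at 1.34 to 3.40 CPM (1.31, edgeR adjusted p from 0.00293 to 0.0462 for TH, ISL1 and CD44). Their part in the results was not tested. In bulk RNA, fewer cells of a type and less RNA per cell cannot be told apart. The library 20 nM replicate 3 stood apart from the other 8 on the first principal component (47.4 against -17.1 to 7.72). Its values are therefore given below beside each result that rests on it.

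Among the 10 genes, PINK1 was the only one whose 3′ untranslated region (UTR) holds a match to the seed of miR-1229-3p, the bases 2 to 8 that pair with a target. The mature microRNA is shown with its seed in capitals, above the PINK1 sites and the 8-mer sites of the other pathway genes that have one. In the sites, printed 5′ to 3′ as the mRNA strand in DNA letters, capitals mark the bases that match the seed, with the A that follows the match in an 8-mer.
miR-1229-3p: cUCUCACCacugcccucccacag
PINK1 8-mer: agaatgattcttatactctgaaGGTGAGAA
PINK1 6-mer: ggcttggcaaatggaagaacttgaGTGAGA
SYNJ2BP 8-mer, upstream: gtgatccctatggagaattaaaGGTGAGAA
SYNJ2BP 8-mer, downstream: tagttaagagaattcataaacaGGTGAGAA
TOMM20 8-mer: gctggccaaatggtgctcagcaGGTGAGAA
USP8 8-mer: aaagtcttaggcccccctacaaGGTGAGAA

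The microRNA sequence is from RefSeq and lies at chr5:179798278-179798300 on the minus strand (GRCh38.p14). The PINK1 gene spans chr1:20633458-20651511 on the plus strand. Its 8-mer lies at chr1:20651377-20651384, starting at base 686 of a UTR of 820 bases and 127 bases before its end, and 63.3% of the 30 bases on each side are A or U. The 6-mer lies nearer the stop codon, at chr1:20650849-20650854 (base 158 of the UTR, 46.7% A or U around it). The UTRs of the other 9 genes, of 559 bases (FUNDC1) to 3591 bases (TAX1BP1), hold 0 matches of 6 bases or more. The same was found in the UTR of the annotation's canonical transcript for each of the 10.

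The first comparison asked whether the messages of the 10 genes changed at 10 nM. At this concentration 0 of the 10 passed the threshold, where 0.649% of all genes did. The threshold was an adjusted p under 0.05 by the quasi-likelihood test of edgeR, fitted with 1 surrogate variable. An unadjusted p under 0.05 was found for 1 of 10 (TAX1BP1), and for 2084 of all 14943 genes. DESeq2 also called 0 of the 10, and 218 of all genes. A surrogate variable is a term estimated from the data that absorbs variation between libraries that the groups do not explain. Log2 fold changes ran from -0.04 (PARL) to 0.17 (TAX1BP1), with a median of 0.07 beside 0.00047 over all genes. In uncorrected CPM the 10 nM libraries of 3 of the 10 genes (PINK1, TAX1BP1 and BNIP3) all lay above the controls, and over all genes the groups did not overlap for 20%.

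At 20 nM 2 of the 10 genes rose in the fit with 1 surrogate variable, TAX1BP1 and BNIP3L, where 13.9% of all genes changed and 7.8% rose. With the replicate number as a block and no surrogate variables 0 of the 10 passed, where 2039 of all 14943 genes did. How both calls depended on the library 20 nM replicate 3 is given below. The 2 genes that rose code for receptors, of different kinds. An unadjusted p under 0.05 was reached by 3 of 10, and by 4187 of all 14943 genes. The median log2 fold change of the 10 genes was 0.03, beside -0.00016 over all genes. The CPM of the 20 nM libraries did not overlap the controls for 1 of the 10 genes, USP30, against 28.9% of all genes. From 10 to 20 nM 0 of the 10 passed (2.79% of all genes). The dose trend, with the concentration fitted as a number over all 9 libraries, used 2 surrogate variables and gave the fold change per 20 nM. In it 0 of the 10 passed (17.5% of all genes). In each of the 2, 1 of the 10 had an unadjusted p under 0.05, where 2220 and 4607 of all 14943 genes did. DESeq2 called 0 of the 10 in both, and 472 and 2295 of all genes.

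**Figure D1:**
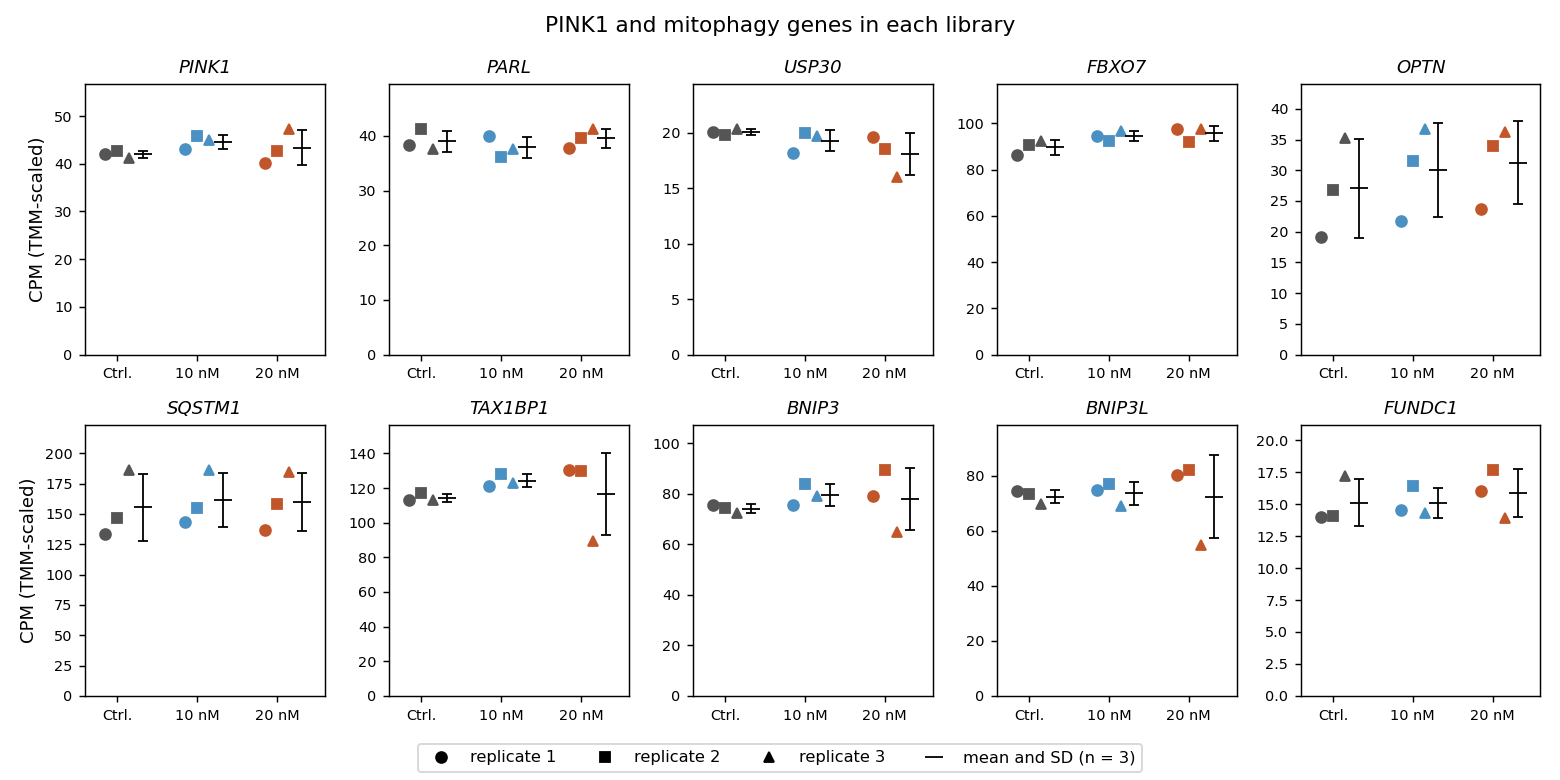
TMM-scaled CPM of the 10 genes (y axis, from 0) in each of the 9 libraries, by group (x axis), with the replicate number as the symbol and the mean and SD of 3 libraries in black. The 20 nM replicate 3 triangle lies lowest of its group for TAX1BP1 (89.4 CPM), BNIP3 (64.9 CPM) and BNIP3L (55.0 CPM), and OPTN and SQSTM1 are ordered by replicate number in every group.

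PINK1 was at 42.0, 42.7 and 41.3 CPM in the Ctrl. libraries (replicates 1 to 3), at 43.0, 45.8 and 44.98 CPM at 10 nM, and at 40.1, 42.6 and 47.3 CPM at 20 nM. The 10 nM libraries all lay above the controls and the 20 nM libraries on both sides of them, with 20 nM replicate 3 the highest of the 9. The fitted log2 fold changes were 0.07 ± 0.05 (SE) and -0.04 ± 0.06, with adjusted p-values by edgeR of 0.596 and 0.72. The 95% interval of the change ran from -2.98% to 12.8% at 10 nM and from -10.6% to 6.09% at 20 nM. The step from 10 to 20 nM was -0.10 ± 0.05 and the dose trend -0.02 ± 0.06, neither past the threshold (adjusted p by edgeR 0.413 and 0.808). Without 20 nM replicate 3 the 20 nM value was -0.03 ± 0.05 (edgeR adjusted p = 0.715). In 23 alternative analyses each of 10 and 20 nM, PINK1 passed in 0.

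PINK1 was next set beside other genes with the same kind of site. In the longest UTR of 13951 genes, 398 had exactly one 8-mer and no 7-mer, as PINK1 has. Their median log2 fold change was -0.02 at 10 nM and -0.03 at 20 nM, and 2.26% and 12.8% of them fell, against a median of 0.01 at both concentrations and a share of 0.161% and 4.53% among 8052 genes without any match. PINK1 lay above 75.9% of the 398 genes at 10 nM, above 47.7% at 20 nM and above 54.0% in the dose trend. Among the 8052 genes without any match PINK1 lay above 67.7%, 37.0% and 39.5%. At 20 nM PINK1 was thus placed near the middle of the genes that carry a single 8-mer, and well within those without a match. Its place does not tell the 2 classes apart. Apart from these libraries, the paper reports PINK1 as a direct target of the microRNA. Its methods describe luciferase reporters of the PINK1 UTR with seed mutations. The paper also lists PINK1 among the few genes with a site that were higher in neurons depleted of the microRNA. That evidence was not tested here.

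**Figure D2:**
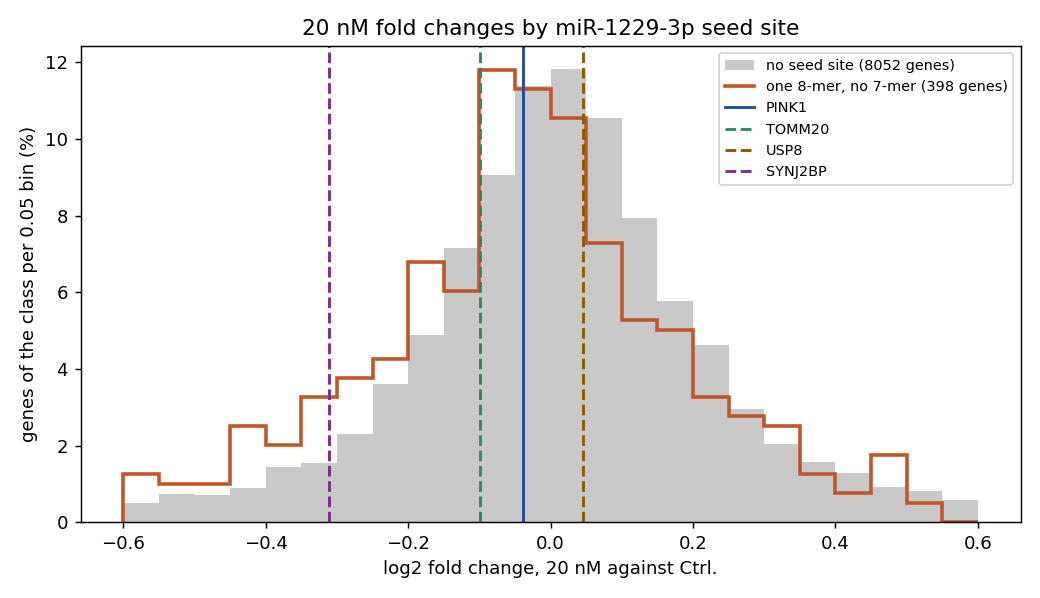
Log2 fold change at 20 nM against Ctrl. (x axis, bins of 0.05) and the share of each class of genes in each bin (y axis, percent), for 8052 genes without a seed match (grey) and 398 with a single 8-mer and no 7-mer (orange line). 391 and 16 genes lie outside the range drawn. Vertical lines mark the 4 pathway genes with an 8-mer: PINK1 (-0.04) lies near the middle of the orange outline, USP8 (0.05) to its right, TOMM20 (-0.10) to its left and SYNJ2BP (-0.31), which has several sites, farther left.

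PARL, FBXO7 and USP30 did not pass the threshold in any of the 4 comparisons. PARL (chr3:183829271-183884933), the rhomboid protease that cuts imported PINK1, ran from 37.6 to 41.2 CPM in Ctrl., from 36.2 to 40.0 CPM at 10 nM and from 37.8 to 41.3 CPM at 20 nM. The groups overlapped, and the fitted changes were -0.04 and -0.01 (adjusted p by edgeR 0.796 and 0.956). FBXO7 (chr22:32474676-32498829), a substrate adaptor of a ubiquitin ligase, had the smallest spread of the 10, with a pooled SD of 0.0458 on the log2 scale. It was at 86.1, 90.9 and 92.4 CPM in Ctrl., 94.7, 92.3 and 96.8 CPM at 10 nM and 97.7, 92.1 and 97.6 CPM at 20 nM. The lowest mimic-treated library lay just below the highest control. The changes of 0.07 ± 0.05 and 0.08 ± 0.05 did not pass (adjusted p by edgeR 0.512 and 0.365), with a 95% interval at 20 nM from -2.36% to 13.9%.

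USP30 (chr12:109023089-109088023), the outer membrane deubiquitinase that removes ubiquitin from mitochondria and so opposes mitophagy, was at 20.0, 19.8 and 20.4 CPM in Ctrl. and 18.2, 20.0 and 19.7 CPM at 10 nM. At 20 nM it was at 19.7, 18.6 and 16.0 CPM, below every control, with 20 nM replicate 3 again at the extreme. Neither the fitted change of -0.07 ± 0.08 nor the dose trend of -0.11 ± 0.08 passed (adjusted p by edgeR 0.661 and 0.343).

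TAX1BP1 (chr7:27739331-27844564), a receptor that binds ubiquitin and the autophagosome protein LC3, was the first of the 2 genes that rose at 20 nM. It was at 112.9, 117.0 and 113.1 CPM in Ctrl., at 121.0, 128.4 and 123.2 CPM at 10 nM, and at 130.4, 129.8 and 89.4 CPM at 20 nM. All 3 libraries at 10 nM and replicates 1 and 2 at 20 nM lay above the controls, while 20 nM replicate 3 lay below every other library. The log2 fold change was 0.17 ± 0.05 at 10 nM and 0.21 ± 0.06 at 20 nM, of which only the second passed (adjusted p by edgeR 0.16 and 0.0336). The mean of the libraries barely differed between Ctrl. (114.4 ± 2.33 CPM, SD, n = 3) and 20 nM (116.6 ± 23.5 CPM). The fitted values rest on the surrogate variable, on which 20 nM replicate 3 had 0.907 and the other 8 libraries between -0.242 and 0.0602.

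BNIP3L (chromosome 8), also called NIX, the outer membrane receptor that clears mitochondria from maturing red blood cells, likewise had its lowest value in 20 nM replicate 3. It was at 74.4, 73.5 and 69.7 CPM in Ctrl., at 74.7, 77.2 and 69.0 CPM at 10 nM, and at 80.2, 82.1 and 55.0 CPM at 20 nM. The first pair of 20 nM libraries lay above all other libraries and the third below them all, and the Ctrl. and 20 nM means were 72.5 ± 2.50 and 72.4 ± 15.2 CPM. Fitted with the surrogate variable, BNIP3L stood at 0.08 ± 0.05 at 10 nM and rose by 0.20 ± 0.06 at 20 nM (adjusted p by edgeR 0.504 and 0.0359).

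Both calls depended on how 20 nM replicate 3 was treated. Without that library, with 2 surrogate variables as then estimated, TAX1BP1 was higher by 0.18 and BNIP3L by 0.15 (adjusted p by edgeR 0.000754 and 0.0103), and both also passed with 1. Of all 14943 genes 4370 passed in the fit with 2 and 2656 in that with 1. With all 9 libraries and 0 surrogate variables the values were 0.03 and -0.0015 (adjusted p by edgeR 0.909 and 0.995). In that fit 0 of the 10 genes passed at 20 nM, where 954 of all 14943 genes did. Replicate numbers paired the libraries of each mimic group with those of the Ctrl. group. With the number as a block and no surrogate variables TAX1BP1 stood at 0.01 and BNIP3L at -0.02 (adjusted p by edgeR 0.944 and 0.915). Again 0 of the 10 passed, where 2039 of all 14943 genes did, beside 2074 in the main fit. Leaving out other libraries also ended calls: TAX1BP1 missed the threshold without Ctrl. replicate 1 or 3 (edgeR adjusted p = 0.0589 and 0.0609) and without 20 nM replicate 1 or 2 (edgeR adjusted p = 0.223 and 0.276), and BNIP3L without Ctrl. replicate 2 or 3 (edgeR adjusted p = 0.0548 and 0.0937) and without 20 nM replicate 1 or 2 (edgeR adjusted p = 0.125 and 0.292). Over 23 alternatives TAX1BP1 passed in 15 and BNIP3L in 14. Among the 23, those with 1 surrogate variable and with no filter on low genes repeat the main fit, so their outcome was fixed. Another, the replicate block without 20 nM replicate 3, was chosen after seeing the data.

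BNIP3 (chr10:131967684-131981967), the relative of BNIP3L that is best known as a hypoxia-induced receptor, also had its lowest value in 20 nM replicate 3 and did not pass. It was at 75.5, 74.5 and 72.2 CPM in Ctrl., at 75.6, 83.9 and 78.9 CPM at 10 nM, and at 78.9, 89.3 and 64.9 CPM at 20 nM. All 10 nM libraries lay just above the controls, and 20 nM replicate 3 lay below them. Its fitted changes of 0.14 ± 0.07 and 0.19 ± 0.07 did not pass (adjusted p by edgeR 0.381 and 0.111). Without 20 nM replicate 3 the 20 nM value was 0.17 ± 0.05 and passed with 2 surrogate variables (adjusted p by edgeR 0.0113) but not with 1. In that fit with 2, TAX1BP1 also passed at 10 nM (0.12, adjusted p by edgeR 0.0316), and TAX1BP1 (0.18) and BNIP3L (0.17) passed in the dose trend (adjusted p by edgeR 0.00782 and 0.0286). The same fit called 1318 of all 14943 genes at 10 nM, 4370 at 20 nM and 2760 in the dose trend. FUNDC1 (chrX:44523639-44542859), a further hypoxia-linked receptor, ran from 13.9 to 17.7 CPM over the 9 libraries, and its change of 0.15 ± 0.12 at 20 nM did not pass (edgeR adjusted p = 0.466).

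**Figure D3:**
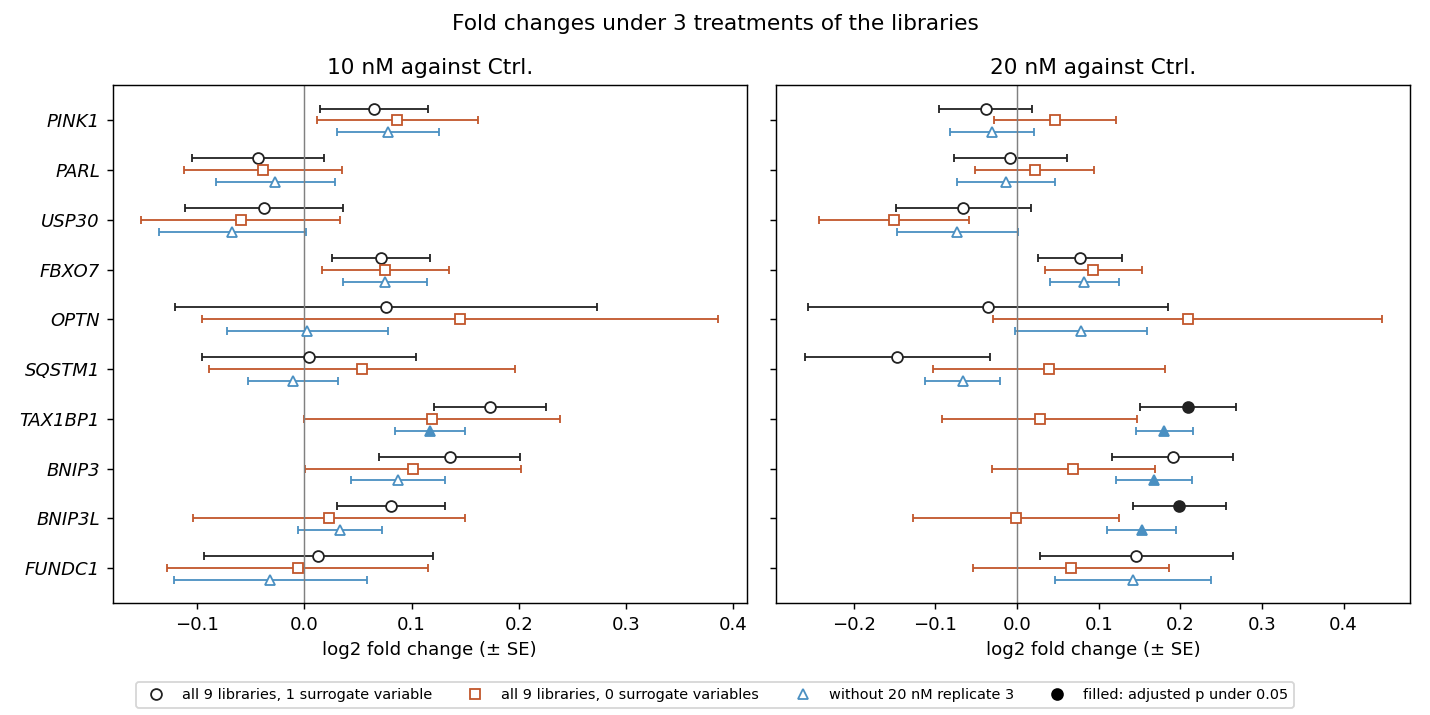
Log2 fold change with its SE (x axis) of the 10 genes (y axis) at 10 nM and 20 nM against Ctrl., for all 9 libraries with 1 surrogate variable (black circles), all 9 with 0 (orange squares) and without 20 nM replicate 3 (blue triangles), filled where the edgeR adjusted p was under 0.05. At 20 nM TAX1BP1, BNIP3 and BNIP3L lie between 0.15 and 0.21 in black and blue and between -0.0015 and 0.07 in orange, while PINK1 stays between -0.04 and 0.05.

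OPTN and SQSTM1, both ubiquitin-binding receptors, varied more with the replicate number than with the mimic. OPTN (chr10:13099449-13138308), optineurin, was at 19.2, 26.7 and 35.3 CPM in Ctrl., at 21.7, 31.6 and 36.7 CPM at 10 nM, and at 23.6, 33.9 and 36.2 CPM at 20 nM. SQSTM1 (chr5:179806398-179838078), the adaptor p62, was at 133, 147 and 186 CPM in Ctrl., at 143, 155 and 186 CPM at 10 nM and at 137, 158 and 184 CPM at 20 nM. In all 3 groups both genes were lowest in the libraries numbered 1 and highest in those numbered 3, and the replicate number took 88.9% of the variation of log2 CPM for OPTN and 96.0% for SQSTM1. The mean of the libraries numbered 3 was 1.68 times that of those numbered 1 for OPTN and 1.35 times for SQSTM1. What the number stands for is not given in the labels.

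The change with the mimic was small beside this spread. OPTN stood at 0.08 ± 0.20 and -0.04 ± 0.22 in the 2 comparisons with Ctrl. (adjusted p by edgeR 0.897 and 0.942), with a 95% interval at 20 nM from -29.97% to 35.9%, the widest of the 10. Each 10 nM and 20 nM library of OPTN was above the same-numbered control, in 6 of 6 comparisons, as was each of FBXO7. TAX1BP1 and BNIP3 were in 5 of 6. The 6 comparisons reuse the same 3 Ctrl. libraries, and the share of all genes at 6 of 6 was not computed. With the replicate number as a block and no surrogate variables OPTN stood at 0.16 ± 0.08 and 0.22 ± 0.08 without passing (adjusted p by edgeR 0.572 and 0.0822), and without 20 nM replicate 3 the block gave 0.29 ± 0.07 at 20 nM, which passed (adjusted p by edgeR 0.00286). In that block fit without 20 nM replicate 3, 4379 of all 14943 genes passed at 20 nM. For SQSTM1 the fit of all 9 libraries with 1 surrogate variable gave 0.0041 ± 0.10 and -0.15 ± 0.11 (adjusted p by edgeR 0.991 and 0.442). Across the 9 libraries, log2 CPM of OPTN and SQSTM1 had r = 0.91 and that of TAX1BP1 and BNIP3L r = 0.93, values that share the library order and the 1 library that stood apart.

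SQSTM1 and miR-1229 are neighbours. The gene starts 8052 bases from the end of the microRNA hairpin on chromosome 5, and overlaps the host gene MGAT4B by 555 bases on the opposite strand. It also overlaps MRNIP by 2946 bases, TAX1BP1 overlaps JAZF1 by 13992 bases and PINK1 the antisense gene PINK1-AS by 8855 bases, all on opposite strands. Whether the authors' counting used the strand is not stated, so reads from such partners may be shared. The largest overlap, of PARL with an unnamed protein-coding gene, is 55619 bases on the same strand, where the strand would not separate reads. SQSTM1 stands in the count table under the identifier ENSG00000284099 and was matched to the annotation by symbol.

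Set against each other per kilobase of canonical transcript, the 10 messages covered a range of levels in Ctrl. from 54.7 ± 9.69 CPM per kb for SQSTM1 to 5.36 ± 0.0714 CPM per kb for USP30 (mean ± SD, n = 3). SQSTM1 was followed by BNIP3 (48.0 ± 1.12), which lay within the SD of SQSTM1, and then by FBXO7 (43.6 ± 1.58), TAX1BP1 (33.4 ± 0.682), PARL (26.0 ± 1.28) and BNIP3L (21.0 ± 0.724 CPM per kb). PINK1, at 15.8 ± 0.262 CPM per kb, lay within the SD of FUNDC1 (14.4 ± 1.74). OPTN, at 7.78 ± 2.32 CPM per kb, was ninth. The transcript of PINK1 was thus near the level of FUNDC1, below SQSTM1 and TAX1BP1 and above OPTN.

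The genes whose log2 CPM followed that of PINK1 most closely over the 9 libraries, of 10508 with a mean of at least 10 CPM, were PIGS (r = 0.964), SH3BP5L (r = 0.956), TTC7B (r = 0.951), OTUD5 (r = 0.949) and SHF (r = 0.934). An r over 0.9 was reached by 26 genes. With 9 libraries, 1 of which stood apart, these values only describe the order of the libraries.

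Around the 10 genes, 41 further genes of the pathway were examined in 4 lists, and all 41 were tested. At 10 nM 1 of the 41 passed (0.649% of all genes), at 20 nM 4 (13.9%), from 10 to 20 nM 1 (2.79%) and in the dose trend 7 (17.5%), 5 of them higher and 2 lower, so that at 20 nM and in the trend the lists stood no higher than genes at large. Without 20 nM replicate 3 the counts were 3, 11, 4 and 5 with 2 surrogate variables, when 1318, 4370, 1495 and 2760 of all genes passed. With 1 surrogate variable and without that library they were 1, 5, 1 and 4, when 160, 2656, 462 and 2541 of all genes passed. With all libraries and 0 surrogate variables they were 0, 3, 0 and 3, when 5, 954, 67 and 1236 of all genes passed. The median log2 fold change of the 41 genes was 0.02 at 10 nM, 0.01 at 20 nM, -0.0027 from 10 to 20 nM and 0.01 in the dose trend. CALCOCO2, the ubiquitin-binding receptor NDP52, was at 22.6 to 28.5 CPM and did not pass (-0.05 and 0.07, edgeR adjusted p = 0.802 and 0.666).

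Of the 12 genes of PINK1 import and processing, 1 passed at 10 nM, 3 at 20 nM, 1 from 10 to 20 nM and 5 in the dose trend, against the shares of all genes just given. SYNJ2BP, an outer membrane protein that with SYNJ2 tethers Pink1 mRNA to mitochondria in neurons, was lower at both concentrations (-0.42 ± 0.05 and -0.31 ± 0.06, adjusted p by edgeR 0.003 and 0.00377), its 6 mimic libraries (42.7 to 50.1 CPM) all below the controls (59.8 to 66.4 CPM). The 10 nM call was lost, at a log2 fold change of -0.45, with 0 surrogate variables and with the replicate block (adjusted p by edgeR 0.143 and 0.0647). The study picked SYNJ2BP as a target on these same libraries, so its direction here is not independent evidence. Apart from these libraries, the paper reports SYNJ2BP as a direct target from luciferase assays in HEK cells, with intact and mutated sites. SYNJ2 was higher at 20 nM (0.28 ± 0.08, edgeR adjusted p = 0.0445) but missed the threshold without any single library of Ctrl., 10 nM replicate 2 or 20 nM replicate 1 or 2 (edgeR adjusted p from 0.0572 to 0.173) and with the replicate block (0.25, edgeR adjusted p = 0.0638). PMPCB, a subunit of the matrix peptidase that trims imported presequences, PINK1's among them, was higher at 20 nM (0.31 ± 0.05, edgeR adjusted p = 0.00109) and in 23 of 23 alternatives.

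In the dose trend TIMM23, a channel subunit of the inner membrane, was also higher (0.17 ± 0.05, adjusted p by edgeR 0.0239) and TOMM20, an import receptor of the outer membrane, lower (-0.15 ± 0.05, edgeR adjusted p = 0.0386). TIMM23 was at 113.5 CPM in 20 nM replicate 3 against 69.6 to 83.8 CPM in the other 8 libraries, and TOMM20 at 449 CPM against 523 to 590 CPM. The trend of TIMM23 was lost without Ctrl. replicate 1 or 3, 10 nM replicate 2, or 20 nM replicate 2 or 3 (edgeR adjusted p from 0.0525 to 0.246). That of TOMM20 was lost without any of 8 libraries, all but 10 nM replicate 3 (edgeR adjusted p from 0.0705 to 0.349), although without 20 nM replicate 3 TOMM20 passed at 20 nM (-0.11, edgeR adjusted p = 0.00552).

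Of 13 ubiquitin ligases and deubiquitinases, 0, 1, 0 and 1 passed in the 4 comparisons. That gene was UBE2N, a conjugating enzyme for ubiquitin chains linked through lysine 63, at 0.24 ± 0.05 at 20 nM (edgeR adjusted p = 0.00592), and higher in 23 of 23 alternatives. Of 8 outer membrane proteins that are ubiquitinated in the pathway, 0, 0, 0 and 1 passed. It was RHOT2, a Miro GTPase that anchors mitochondria to motor proteins, higher over the concentrations (0.19 ± 0.04, adjusted p by edgeR 0.00788) with 453 CPM in 20 nM replicate 3 against 296 and 301 in the other 20 nM libraries, and its trend missed the threshold without Ctrl. replicate 3 or 20 nM replicate 2 or 3 (edgeR adjusted p from 0.0514 to 0.0791). Of 8 other receptors and adaptors, 0 passed in all 4 comparisons. An unadjusted p under 0.05 was found for 0, 1, 1 and 1, beside 2084, 4187, 2220 and 4607 of all 14943 genes.

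**Figure D4:**
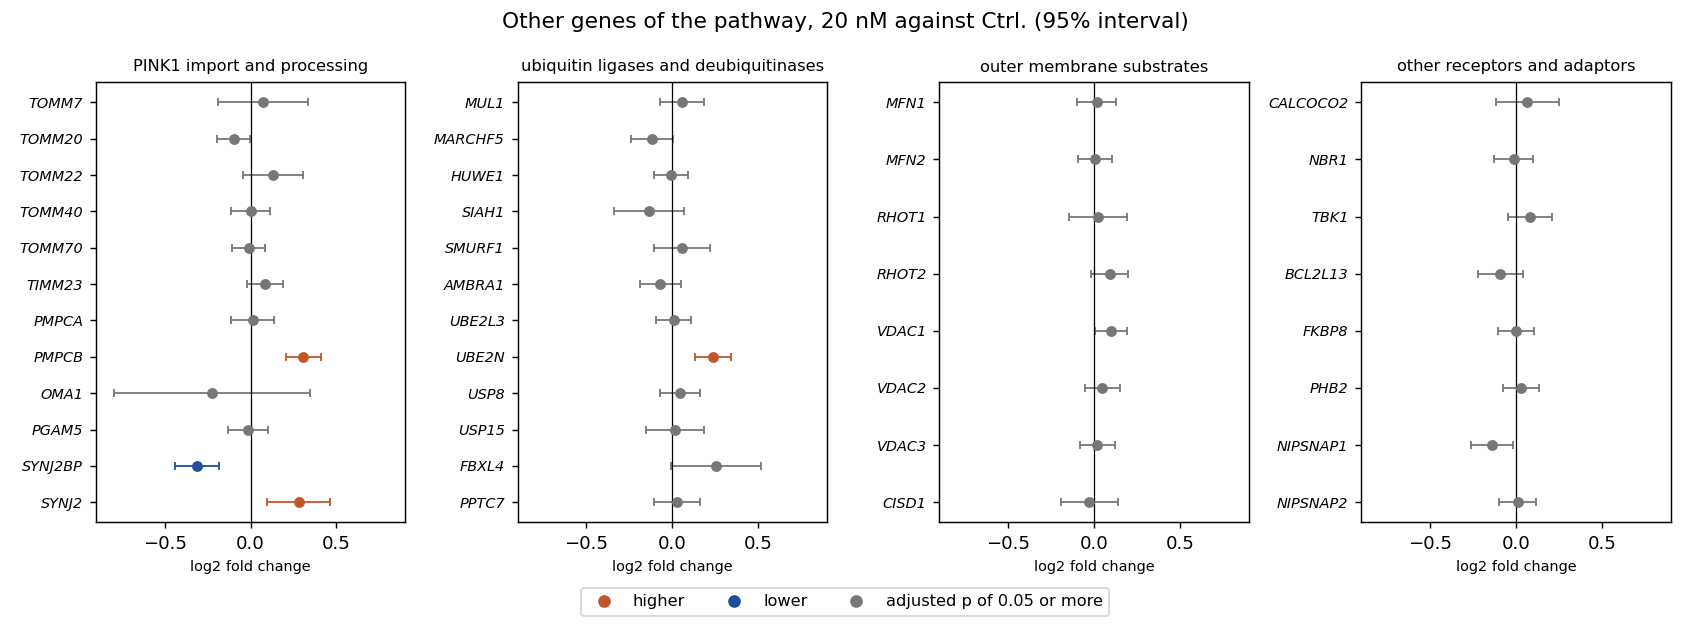
Log2 fold change at 20 nM against Ctrl. with its 95% interval (x axis) for 40 of the 41 other pathway genes (y axis) in 4 lists, with genes that passed the edgeR threshold in orange (higher) or blue (lower). PMPCB (0.31), SYNJ2 (0.28) and UBE2N (0.24) lie to the right, SYNJ2BP (-0.31) to the left, and 36 of the genes drawn did not pass.

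Among the 51 genes of the pathway, 4 have an 8-mer (PINK1, SYNJ2BP, TOMM20 and USP8), 5 a 7-mer at best and 42 neither. Of the 4 genes with an 8-mer 1 was lower at 10 nM and at 20 nM (SYNJ2BP) and 2 in the dose trend (with TOMM20, whose trend was lost without any of 8 libraries), where 2.44%, 14.1% and 16.5% of all 739 genes with an 8-mer were lower. Their median log2 fold change was 0.06 at 10 nM, -0.07 at 20 nM and -0.09 in the dose trend. Of the genes without an 8-mer 0 were lower in these comparisons, and 5 of the 42 were higher at 20 nM and in the dose trend. Of all genes with a 7-mer at best 0.721%, 8.69% and 11.6% were lower, and of those without any match 0.161%, 4.53% and 5.34%. Higher at 20 nM and in the trend were 656 and 887 of the 8052 genes without any match. Of the 2386 with a 6-mer at best, 221 and 247 were higher. SYNJ2BP has 2 8-mers in a UTR of 6492 bases (chr14:70372421-70372428 and chr14:70370747-70370754), TOMM20 has 1 in 2723 bases (chr1:235109881-235109888) and USP8 has 1 in 15333 bases (chr15:50503481-50503488). USP8, a deubiquitinase, stood at 0.07 ± 0.05 and 0.05 ± 0.05 (edgeR adjusted p = 0.535 and 0.637). The 8-mers printed above share the 8 bases in capitals, and the messages that carry them stood at -0.31 (SYNJ2BP), -0.10 (TOMM20), -0.04 (PINK1) and 0.05 (USP8) at 20 nM. These messages differ in their other sites, so they do not compare the 8-mer alone. SYNJ2BP has 2 8-mers with 1 7-mer and 1 6-mer, and USP8 1 8-mer with 1 7-mer and 7 6-mers. TOMM20 and PINK1 each have 1 8-mer and 1 6-mer. The trend of SYNJ2BP missed the threshold without any single Ctrl. library (edgeR adjusted p from 0.051 to 0.0589).

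BNIP3 and BNIP3L are targets of the hypoxia factor HIF, and SQSTM1 is a target of the oxidative stress factor NRF2, so other targets of both were examined. Of 11 HIF targets tested, 0 passed at 10 nM and 0 from 10 to 20 nM. At 20 nM 1 passed and in the dose trend 2, all higher, beside 13.9% and 17.5% of all genes. The median of the 11 was 0.15 at 20 nM. In the 4 comparisons 3, 4, 1 and 4 had an unadjusted p under 0.05, beside 2084, 4187, 2220 and 4607 of all 14943 genes. LDHA, lactate dehydrogenase, was at 424 to 460 CPM in Ctrl. and 529 to 555 CPM at 20 nM (0.29 ± 0.05, edgeR adjusted p = 0.00368), and was higher in 23 of 23 alternatives. SLC2A1, the glucose carrier GLUT1, passed in the dose trend (0.22 ± 0.07, adjusted p by edgeR 0.0479) and with the replicate block at 20 nM (0.29, adjusted p by edgeR 0.0447). Its trend was lost without Ctrl. replicate 1 or 3 or 20 nM replicate 2 (edgeR adjusted p from 0.091 to 0.222).

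Of 10 NRF2 targets, 0 passed at 10 nM and 0 from 10 to 20 nM. At 20 nM 1 passed and in the dose trend 2, in opposite directions, beside the same shares of all genes. In the 4 comparisons 2, 2, 1 and 2 had an unadjusted p under 0.05, beside the counts of all genes just given. HMOX1, heme oxygenase, was low, at 2.43 to 3.00 CPM in Ctrl., 4.13 to 5.66 CPM at 10 nM and 4.78 to 6.32 CPM at 20 nM. It rose at 20 nM (1.08 ± 0.20, edgeR adjusted p = 0.00347), while the 0.81 ± 0.18 at 10 nM did not pass (edgeR adjusted p = 0.0716), and without 20 nM replicate 3 it did (0.75, edgeR adjusted p = 0.00979). TXNRD1, thioredoxin reductase, was lower over the concentrations (-0.20 ± 0.05, adjusted p by edgeR 0.00731), a call lost without Ctrl. replicate 3 or 20 nM replicate 2 (edgeR adjusted p = 0.12 and 0.152). SQSTM1 itself, at -0.15 ± 0.11, did not pass, and the median of the 10 genes was 0.0014 at 20 nM.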

How the data were processed

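The authors mapped reads with salmon onto GRCh38.p13 (Ensembl annotation 107), summed transcripts to genes by symbol and applied filterByExpr. The deposited table holds estimated counts, 88.8% of them not whole. The authors also deposited comparison tables and a table corrected for surrogate variables, which were not used here. Estimated counts were rounded and fitted with edgeR 4.0.16 (TMM scaling, quasi-likelihood test) in R 4.3.3, with surrogate variables from sva 3.50.0 (1 for the groups, 2 for the dose trend), over all 9 libraries and 14943 genes (Benjamini-Hochberg, threshold 0.05). filterByExpr removed 0 further genes. CPM values carry no correction for surrogate variables and fold changes do, so the 2 can differ. Replicate numbers, given in the labels, were tested for pairing: deviations from the group means correlated at 0.107 to 0.185 in the 6 same-numbered pairs with Ctrl., at 0.0288 to 0.176 in the 3 pairs of 10 and 20 nM, and at -0.17 to 0.0321 between different numbers, so by a minimum of 0.1 in every pair they paired each mimic group with Ctrl. but not the mimic groups with each other. DESeq2 1.42.0 was an alternative. Some alternatives repeat the main fit and count among those that stayed the same. These are no filter on low genes, 1 surrogate variable for the groups and 2 for the dose trend.

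The members and gene lists were chosen with earlier results of these data known. Outside the 10 members, genes named were CALCOCO2, the list genes that passed (up to 10 from the pathway lists and 4 each from the HIF and NRF2 lists, by adjusted p in the dose trend) and the 5 most like PINK1. USP8 was added after its values were seen, for its 8-mer, and marker genes as a check. A gene that the rule named and a marker are not reported here. UTRs and positions came from GENCODE 44 (GRCh38.p14), where 14092 genes matched by identifier and 768 by symbol, the longest UTR of each gene was searched, and the canonical one was an alternative. Gene positions follow that annotation, not the authors' build.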

Additional observations from a re-analysis of the deposited data

Results flagged for a closer look

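PMPCB, the peptidase subunit, was the one gene among the 10 members and the 6 lists whose level differed between the concentrations by a test of that difference. From 10 to 20 nM its log2 fold change was 0.21 ± 0.04 (edgeR adjusted p = 0.0243). It was at 96.7 to 101.2 CPM in Ctrl., 104.0 to 108.8 CPM at 10 nM and 120.7 to 133.5 CPM at 20 nM, so the 3 groups did not overlap. The difference missed the threshold without 10 nM replicate 1 or 3 or 20 nM replicate 1 or 2 (edgeR adjusted p from 0.0662 to 0.187), with 0 surrogate variables and with the replicate block (0.25 in both, edgeR adjusted p = 0.152 and 0.108), and passed in 17 of 23 alternatives.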

How the results depend on the processing

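At 20 nM, where 2 of the 10 genes passed in edgeR, 1 did with DESeq2 (TAX1BP1, while BNIP3L stood at a DESeq2 adjusted p of 0.0529). With 0 or 2 surrogate variables, or with only the 6 libraries of the groups compared, 0 did. Over all genes 1826 passed at 20 nM with DESeq2, 954 and 1954 with 0 and 2 surrogate variables, and 2578 with the 6 libraries. At 10 nM 1 passed with 3 surrogate variables, and in the dose trend 2 with 1 surrogate variable and without 20 nM replicate 3. Of all genes 913 and 2541 passed in these fits. Leaving out 1 library at a time gave 0 to 1 at 10 nM, 0 to 3 at 20 nM and 0 to 2 in the dose trend, with the upper value in each without 20 nM replicate 3, where surrogate variables were estimated anew. BNIP3L turned to -0.001514 at 20 nM with 0 surrogate variables. Of 920 member values under the alternatives, 889 stayed on their side of the threshold, 15 lost a call, 12 gained one, and 4 reversed; 103 uncalled values changed sign, among them the trend of OPTN in 15 of 23 alternatives. In the canonical UTRs PINK1 lay above 51.8% of 334 genes with a single 8-mer at 20 nM, and above 37.7% of 8881 genes without a match. Over all genes the count called ran from 3 to 1788 at 10 nM, 954 to 4379 at 20 nM, 67 to 1495 from 10 to 20 nM and 1236 to 3646 in the dose trend, and was 164 with mimic present or absent in place of the concentration. With 3 libraries per group, changes within the intervals given are not excluded for genes that did not pass.

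In a fit that took the replicate number as a block and had no surrogate variables, 0 of the 10 genes passed at 20 nM and BNIP3L stood at -0.018728. Among the other genes named, the block ended the calls of SYNJ2BP at 10 nM and SYNJ2 at 20 nM, made that of SLC2A1 at 20 nM, and changed no other in the comparisons with Ctrl.; from 10 to 20 nM it ended that of PMPCB and in the dose trend those of SYNJ2, TOMM20, RHOT2 and TXNRD1. The calls that the block ended, and those of TIMM23 and SLC2A1 in the trend, were also lost with 0 surrogate variables. Over all genes 3 passed at 10 nM with the block and 97 without it, and at 20 nM 2039 and 2074. A replicate block without 20 nM replicate 3, chosen after seeing the data, called 1 of the 10 genes at 10 nM and 3 in the dose trend. At 20 nM it called 4 (OPTN, TAX1BP1, BNIP3 and BNIP3L, all higher). OPTN stood at 0.29117 at 20 nM and 0.29396 in the trend (edgeR adjusted p = 0.00286 and 0.00512). In that fit 1788 of all 14943 genes passed at 10 nM, 4379 at 20 nM and 3646 in the dose trend.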
